A study of Schizosaccharomyces pombe with 3 samples.

Results

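The 103 genes described here were at 0.5 or less of their untreated junction reads after 30 min of Prp4 kinase inhibition in the fission yeast *Schizosaccharomyces pombe*. A junction read is an RNA-seq read at the exon1/5' splice site (5' SS) of an intron: a split read joins exon to exon and comes from spliced RNA, an unsplit read runs from the exon into the intron and comes from pre-mRNA. Both kinds were summed over all introns of a gene, and the 103 genes were chosen by the ratio of that sum at 30 min to the sum in untreated cells, each scaled to the junction reads of its library, at 0.5 or below. They were 6.68% of the 1543 genes with 100 or more reads in any library, out of 2546 genes with an intron in the table. The 30 min values are therefore what chose the genes and are given as a description. All 103 met the minimum of 100 reads in the untreated library, as did 1310 of the 1440 other kept genes. The same untreated reads thus enter the read minimum and the ratio. Of the 1413 genes that met the minimum in the untreated library, the 103 were 7.29%.

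All 3 libraries came from 1 haploid strain (h-s) in which the kinase gene is replaced by *prp4-as2*, an analogue-sensitive allele with an alanine in place of the gatekeeper phenylalanine in the ATP pocket, integrated with a kanamycin resistance marker. Cells grew in EMM minimal medium and were left untreated or given 10 μM of the ATP analogue 1NM-PP1 for 30 or 60 min, so the untreated control also carries the allele. Each condition was 1 library of oligo-dT selected, strand-specific cDNA, and no library of wild-type cells with the analogue was analysed here. The untreated, 30 min and 60 min libraries held 910440, 852562 and 743457 junction reads. With 1 library per condition there is no replicate check and no test between conditions. Intervals are exact 95% limits of the ratio of 2 counts and cover counting error only, since reads made by PCR are not independent molecules. In RNA from a whole culture, fewer cells and less RNA per cell cannot be told apart.

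Prp4 is an essential kinase that phosphorylates spliceosomal proteins, among them Prp1, before the spliceosome is activated. When an intron is not removed, its gene loses split reads and gains unsplit reads. The sum of both follows how much RNA of the gene there is at its 5' splice sites, whether spliced or not, so a gene in this set has lost more split reads than it gained unsplit ones.

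The introns below show the range of splicing among the falling genes: the 3 introns of *tbp1*, the most read gene whose reads fell and then came back, and the coding introns of genes with 1 junction in the table that had the 3 highest and the 2 lowest unspliced shares at 30 min. Sequences are from RefSeq assembly ASM294v3, 5' to 3', with the last 3 exon bases first. Capitals mark the first 6 intron bases (the 5' SS) and the branch pentamer nearest the 3' end of the intron that has the form CURAY, where R is A or G and Y is C or U, or, where there is none, YUNAY.
*tbp1* intron 1, chrI:4415750-4416004, plus strand, 255 nt: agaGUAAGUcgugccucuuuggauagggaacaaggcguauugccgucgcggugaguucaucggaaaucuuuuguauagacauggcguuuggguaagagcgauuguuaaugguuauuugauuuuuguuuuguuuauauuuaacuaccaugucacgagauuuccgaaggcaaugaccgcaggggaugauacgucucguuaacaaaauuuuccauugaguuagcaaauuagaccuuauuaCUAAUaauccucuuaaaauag
*tbp1* intron 2, chrI:4416066-4416117, plus strand, 52 nt: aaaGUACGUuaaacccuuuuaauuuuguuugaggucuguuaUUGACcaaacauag
*tbp1* intron 3, chrI:4416379-4416448, plus strand, 70 nt: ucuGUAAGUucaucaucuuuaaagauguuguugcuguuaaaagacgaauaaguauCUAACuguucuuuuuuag
*cbf11*, chrIII:327624-327701, plus strand, 78 nt: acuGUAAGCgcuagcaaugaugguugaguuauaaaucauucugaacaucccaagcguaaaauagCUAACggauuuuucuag
*cdc31*, chrIII:378524-378689, plus strand, 166 nt: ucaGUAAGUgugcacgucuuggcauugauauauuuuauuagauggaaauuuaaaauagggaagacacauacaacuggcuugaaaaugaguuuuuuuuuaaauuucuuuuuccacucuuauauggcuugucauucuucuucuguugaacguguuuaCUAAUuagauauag
*rio2*, chrII:2924079-2924232, plus strand, 154 nt: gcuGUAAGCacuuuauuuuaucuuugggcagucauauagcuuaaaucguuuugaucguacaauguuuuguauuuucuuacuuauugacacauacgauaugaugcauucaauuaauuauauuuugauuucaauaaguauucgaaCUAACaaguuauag
*tts1*, chrII:4368449-4368634, plus strand, 186 nt: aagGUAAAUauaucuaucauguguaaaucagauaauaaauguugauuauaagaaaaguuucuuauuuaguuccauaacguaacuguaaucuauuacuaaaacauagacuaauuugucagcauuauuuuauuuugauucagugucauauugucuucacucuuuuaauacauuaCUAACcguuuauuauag
*smf1*, chrII:2685887-2686005, plus strand, 119 nt: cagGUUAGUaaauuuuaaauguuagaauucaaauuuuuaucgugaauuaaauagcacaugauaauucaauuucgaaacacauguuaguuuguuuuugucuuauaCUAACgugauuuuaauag

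Pairs with the 9 bases at the 5' end of U1 snRNA were counted as matches to CAG/GUAAGU. The 3 introns with the highest unspliced shares at 30 min had 5 or 6 such matches, and the 2 with the lowest had 7 and 8. G-U wobble pairs, and bases other than A opposite the modified base (pseudouridine) of U1, were not counted. A U as the first exon base printed, as in *cdc31*, is a wobble pair in the paper, so the separation depends on this counting. In *cbf11*, which encodes a DNA-binding transcription factor, 67 of 75 reads at 30 min were unsplit (89.3%, interval 80.1 to 95.3%). In *tts1*, which encodes a membrane protein of the endoplasmic reticulum, 3 of 78 were unsplit (3.85%, interval 0.80 to 10.8%). These 5 introns were picked by their unspliced share, and the pairing of all introns is given further on.

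Over the 103 genes, the 30 min ratio ranged from 0.0566 to 0.499 with a median of 0.364, beside a median of 1.09 over all kept genes. Relative to that median, which lies above 1 by 0.128 on the log2 scale, the median of the falling genes was 0.333. A total of 18 genes were at 0.25 or below. For 70 genes the whole interval lay below 0.5, and for the other 33 it included 0.5. The genes just inside the threshold were *erg12* at 0.499, *mug65* at 0.499, *bdf2* at 0.492, *mis16* at 0.492 and SPCC1620.06c at 0.492. Those just outside were *pmp3* at 0.502, *hmt1* at 0.503, SPAC8E11.04c at 0.505, *cdc22* at 0.505 and *vma7* at 0.513, so no gap in the values separates the set from its neighbours.

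**Figure D1:**
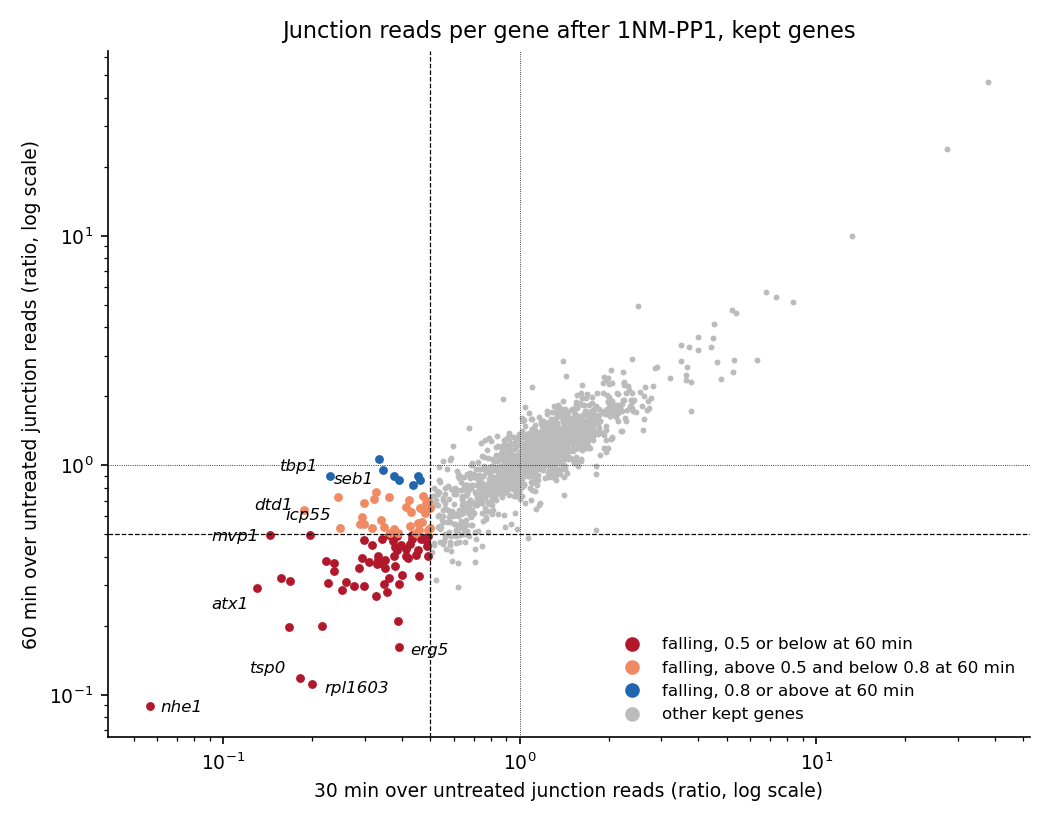
Each point is 1 of the 1543 kept genes, with the 30 min over untreated ratio of junction reads on the x axis and the 60 min over untreated ratio on the y axis, both on log scales. Dashed lines mark 0.5 and dotted lines 1. The falling genes lie left of the vertical dashed line, and 8 of them (blue) are at 0.8 or above at 60 min.

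At 60 min, a time that did not enter the choice, 41 of the 103 genes were above 0.5 of their untreated reads and 62 were still at 0.5 or below. Over all kept genes 5.83% were at 0.5 or below at that time. Only 8 falling genes reached 0.8 of the untreated level, where 77.8% of all kept genes stood. The median 60 min ratio of the falling genes was 0.473 (lowest 0.0892), and 0.436 relative to the median of all kept genes. Measured against that median, 31 rather than 41 genes were above 0.5. The untreated library enters both ratios, so a gene with a chance high count there is low at both times. These levels count split and unsplit reads together and are not levels of spliced RNA. Split reads, scaled to all junction reads, stood at a median of 0.316 of untreated at 60 min, beside 0.837 over all kept genes.

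From 30 to 60 min the reads of 47 falling genes rose with an interval above 1 (45.6%, beside 18.5% of all kept genes). In 6 they went down further with an interval below 1 (5.83%, beside 19.2% of all kept genes), and in 50 the interval included 1. The 30 min library entered the choice of the genes, so a rise from it is partly fixed by that choice. The counts at 60 min could place 22 genes above 0.5 with their whole interval and 36 below it, beside 89.2% and 2.79% of all kept genes. The other 45 could not be placed at this depth.

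**Figure D2:**
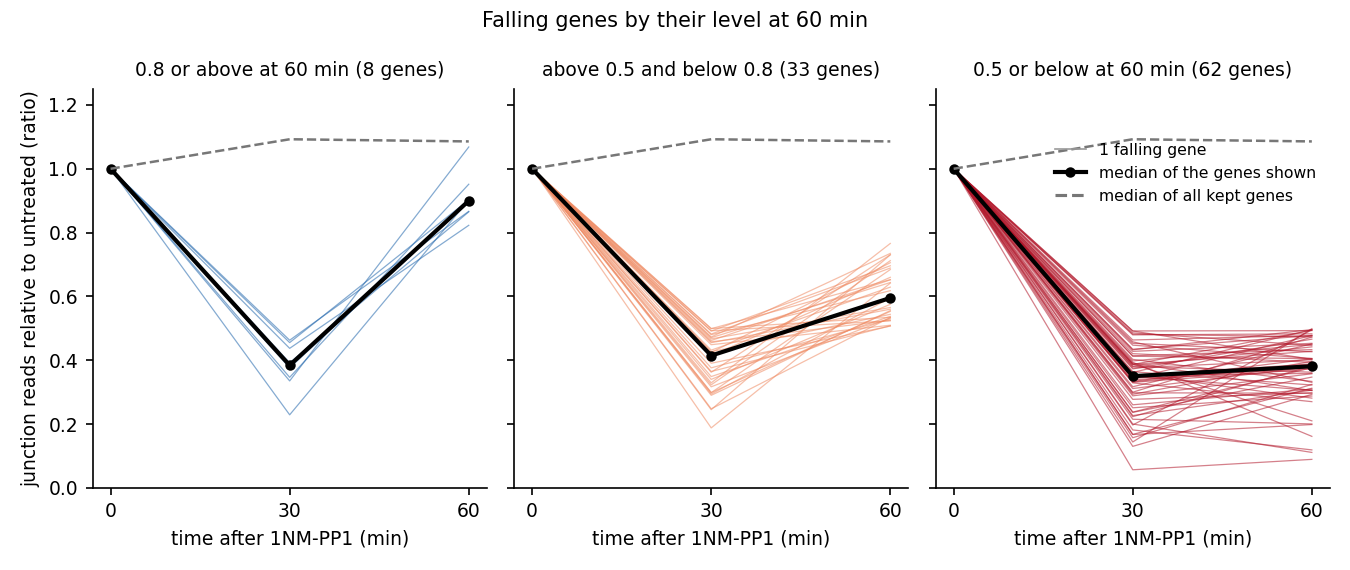
Junction reads of each falling gene relative to untreated cells (y axis, ratio) against minutes after 1NM-PP1 (x axis), in 3 panels by the level at 60 min. Thin lines are genes, the thick line their median and the dashed line the median of all 1543 kept genes. Only the 8 genes of the first panel approach 1, and 62 genes stay at 0.5 or below.

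Split reads fell in every one of the 103 genes, to a median of 0.188 of the untreated level at 30 min, beside 0.704 over all kept genes. They were at 0.5 or below in all 103 genes, beside 30.5% of all kept genes. The unsplit reads of the 103 genes rose to a median of 2.25 times the untreated level, beside 4.95 times over all kept genes. Summed over the 103 genes, split reads went from 52493 before the analogue to 10024 after 30 min and 13779 after 60 min. The summed unsplit reads were 4025, 9010 and 8283. Scaled to library size, the gain in unsplit reads at 30 min made up 13.4% of the loss in split reads, with a median over genes of 11.5% and a range from -11.1 to 42.8%. In 11 genes even the unsplit reads were below their untreated level, beside 1.43% of all kept genes. Since the sum of both kinds of read chose the genes, the fall in split reads and the small gain in unsplit reads follow in part from that choice.

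The share of unsplit reads rose at 30 min in all 103 genes, in 100 of them with intervals that did not overlap. It also rose in 99.5% of all kept genes, with intervals apart in 91.6%, so the falling genes were near that background. Before the analogue its median per gene was 6.84%, and it was 49.0% after 30 min and 37.3% after 60 min. For the other 1440 kept genes the medians were 6.92%, 36.7% and 25.1%. More unsplit than split reads were found at 30 min in 47 falling genes (45.6%, beside 35.1% of all kept genes), against none without the analogue and 28 at 60 min. The 8 genes near their untreated level at 60 min had a median unspliced share of 17.1% then, and the 62 that stayed low had 41.4%. Their medians already differed at 30 min, at 31.5% and 51.7%. *tbp1*, 1 of the 8, had 58.8% at 60 min.

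**Figure D3:**
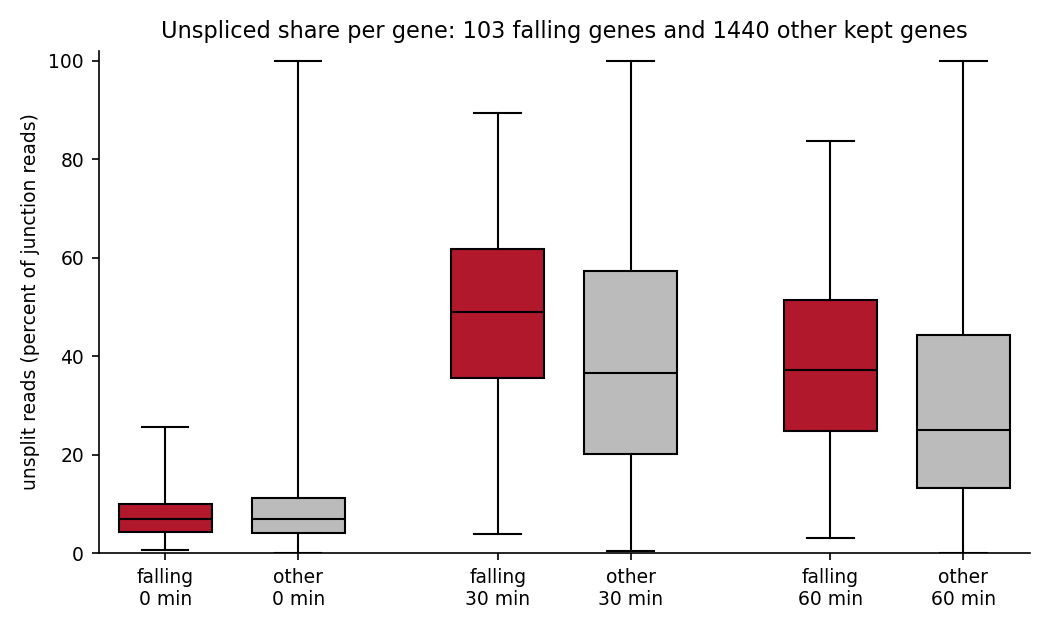
Unsplit reads as a percent of all junction reads of a gene (y axis) in the 3 libraries (x axis), for the 103 falling genes (red) and the other 1440 kept genes (grey). The box spans the quartiles with the median as a line, and whiskers reach the lowest and highest gene. The medians start near 7% in both sets and stand at 49.0% and 36.7% at 30 min.

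The transcription machinery held 5 falling genes of the 45 kept genes of that list (11.1%, beside 6.68% of all kept genes). All 5 were above 0.5 at 60 min, as were 41 of the 103 falling genes. For *rpb5* and *toa2* the 60 min interval included 0.5 (0.451 to 0.616 and 0.470 to 0.696). Split reads, scaled to all junction reads, were above 0.5 at 60 min only in *rpb8* (0.902). They were at 0.417 in *tbp1*, 0.407 in *toa2*, 0.413 in *med18* and 0.495 in *rpb5*. The list had a median 30 min ratio of 1.01. *tbp1* encodes the TATA-binding protein, which nucleates preinitiation complexes for all nuclear RNA polymerases. Its 2850 untreated junction reads went down to 610 at 30 min and up to 2099 at 60 min, so that it fell to 0.229 (interval 0.209 to 0.250) and stood at 0.902 (0.852 to 0.955) of the untreated level afterwards. Its split reads were 2540, 132 and 865, and its unsplit reads 310, 478 and 1234. Split and unsplit reads both rose again between 30 and 60 min, and the share of unsplit reads was 78.4% at 30 min and 58.8% at 60 min.

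The introns of *tbp1* did not come back to the same level. Intron 1, whose 255 nt are the longest of the 3, had 2292, 424 and 1441 reads and a 60 min ratio of 0.770. Intron 2 had 160, 63 and 210 reads and a ratio of 1.60, and intron 3 had 398, 123 and 448 reads and a ratio of 1.38. The median of the 3 junction ratios at 60 min was therefore above 1, where the ratio of sums was below it.

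*rpb5* and *rpb8* encode small subunits shared by the nuclear RNA polymerases. *rpb5* had 550, 193 and 237 junction reads at 0, 30 and 60 min, ratios of 0.376 and 0.529. *rpb8* had 250, 106 and 184, and its 60 min ratio of 0.903 had an interval that included 1 (0.741 to 1.09). Both stayed mostly spliced, with 13.0% and 19.8% unsplit reads at 30 min. Of the other RNA polymerase II subunit genes that were kept, the 30 min ratios ran from 0.715 for *rpb3* to 1.95 for *rpb9*. *toa2*, for the small subunit of TFIIA, which helps TBP hold the TATA box, went from 329 reads to 104 and 154 (0.340 and 0.575), and *med18* of the mediator complex from 979 to 450 and 556 (0.491 and 0.696).

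Outside that list, 2 genes of transcript elongation and termination also fell and came back in part. *pch1*, the cyclin T of the elongation kinase P-TEFb, had 209, 92 and 125 reads, and *seb1*, which takes part in poly(A) site choice, had 108, 24 and 64. Their 60 min ratios were 0.735 and 0.730. SPAC22H10.05c, annotated as a subunit of the cleavage and polyadenylation factor, stayed low with 254, 90 and 91 reads (60 min ratio 0.442). In the chromatin list 2 of 24 kept genes fell (8.33%, beside 6.68% of all kept genes). *sir2*, an NAD-dependent histone deacetylase, had ratios of 0.414 and 0.660, and *bdf2*, a bromodomain protein gene, 0.492 and 0.524.

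**Figure D4:**
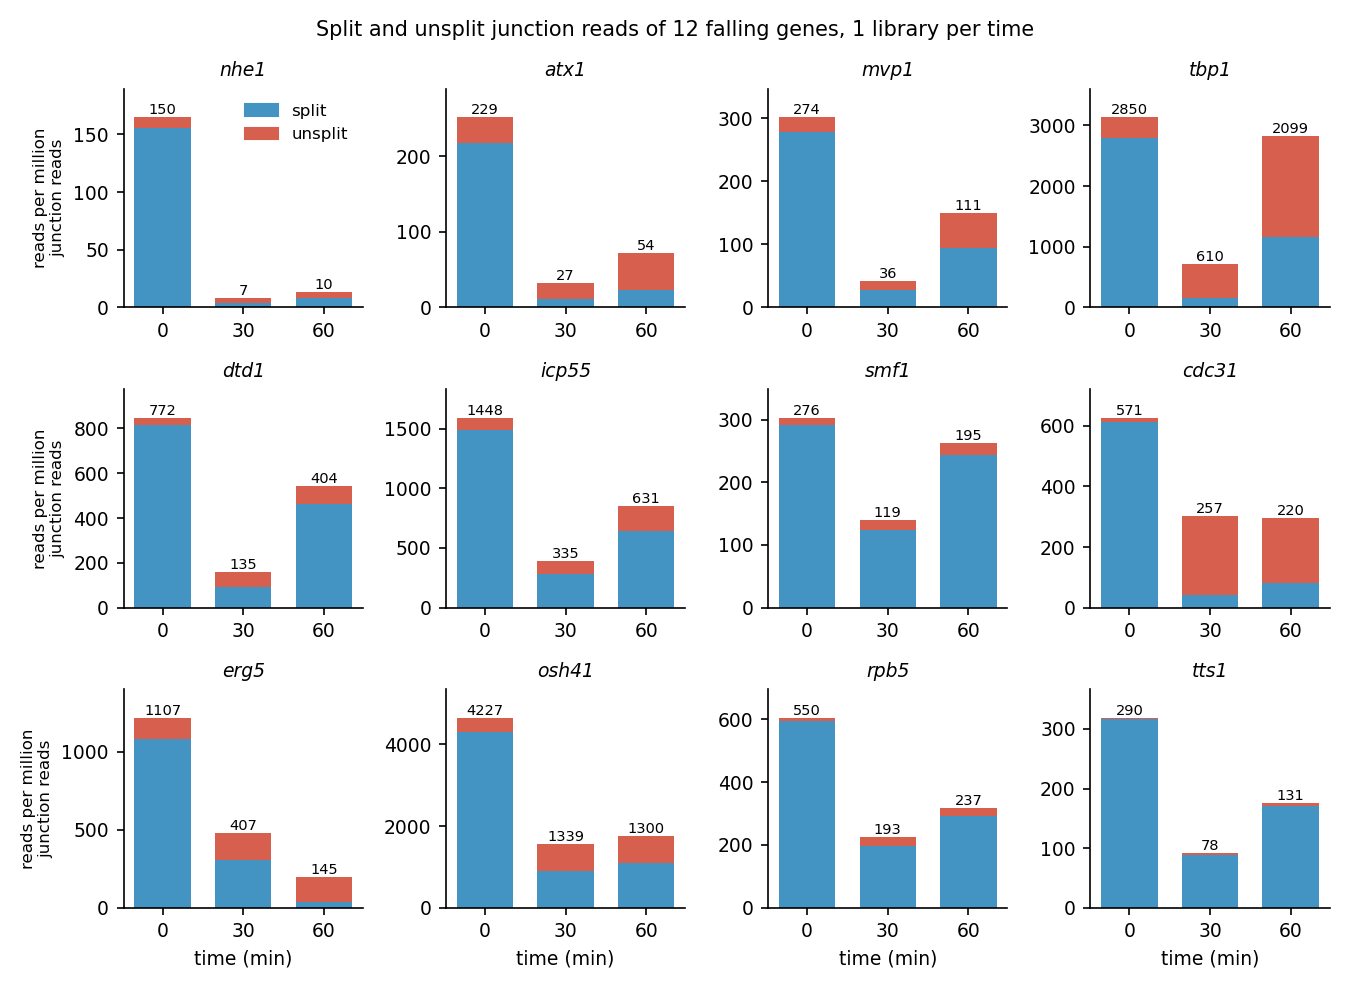
Split (blue) and unsplit (red) junction reads per 1000000 junction reads of the library (y axis, from 0) at 0, 30 and 60 min (x axis) for 12 falling genes, 1 library per bar, with the summed count above each bar. The bars of *smf1* come back to most of the untreated height with few unsplit reads, those of *tbp1* hold more unsplit than split reads at both treated times, and those of *nhe1* and *erg5* stay low.

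Genes for tRNA modification and turnover were a second group. It was assembled from annotated products after the values had been seen, so a high share of falling genes follows in part from that choice. The group held 6 falling genes of 16 kept genes, beside 6.68% of all kept genes. None was at a 30 min ratio of 2 or above, where 6.09% of all kept genes stood. *dtd1* encodes a D-Tyr-tRNA deacylase, which frees tRNA from D-amino acids. Its reads went from 772 to 135 and back to 404 (0.188 and 0.642), and all 6 of its junctions were below 0.3 at 30 min. *trm5*, a tRNA guanine methyltransferase gene, had 541, 166 and 338 reads and reached 0.766 at 60 min. *dus2*, a tRNA dihydrouridine synthase gene, had 147, 47 and 114 and reached 0.952 (0.737 to 1.22). By contrast *urm1*, whose ubiquitin-like product carries sulfur for tRNA thiolation, stayed at 120 and 118 reads after 390 (60 min ratio 0.373). *tan1*, for a tRNA acetyltransferase, and *pth1*, for a peptidyl-tRNA hydrolase, were at 0.496 (0.437 to 0.560) and 0.618 (0.433 to 0.857) at 60 min.

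The genes with the lowest ratios at 30 min had mixed functions, and *mvp1*, *ppk13*, *mhf1* and *rpl1603* among them are described with other genes. The list of membrane transporters had 1 falling gene of 6 kept genes (16.7%, beside 6.68% of all kept genes), *nhe1*. *nhe1*, deposited as *sod2*, encodes the plasma membrane antiporter that exports sodium ions for protons. It had 150 junction reads at its 1 intron before the analogue, then 7 and 10, ratios of 0.0566 (0.0197 to 0.105) and 0.0892 (0.0384 to 0.154), the lowest of all kept genes at both times. *atx1*, the copper chaperone gene, followed with 229, 27 and 54 reads. Its unsplit reads went from 31 to 17 and 37, so that more of its few reads were unsplit than split at both treated times. *alo1*, for D-arabinono-1,4-lactone oxidase, had 169, 24 and 44 reads, and *tsp0*, for a TspO-like membrane protein, 205, 34 and 19. *fra1*, annotated as an iron-responsive regulator, had 140, 25 and 56. SPBC1604.04, annotated as a thiamine pyrophosphate transporter, stayed at 134 and 139 reads after 553.

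Isoprenoid and sterol genes were also in the set. In the sterol and lipid list 3 of 21 kept genes fell (14.3%, beside 6.68% of all kept genes), and its median 30 min ratio was 1.04. *erg8* and *erg12* encode the kinases that phosphorylate phosphomevalonate and mevalonate, steps in a row on the way to isoprenoids. *erg12* had 322, 150 and 140 reads and *erg8* 116, 25 and 35. *erg5*, for the C-22 sterol desaturase, had 1107, 407 and 145, and was 1 of the 6 genes that fell further, from 0.393 to 0.161. Its split reads were 982, 259 and 30, and 79.3% of its reads at 60 min were unsplit. *osh41*, deposited as *kes1*, encodes an oxysterol-binding protein and was the falling gene with the most reads, at 4227, 1339 and 1300 (0.338 and 0.377). Other kept *erg* genes ran from 0.572 for *erg27* to 1.04 for *erg28* at 30 min.

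By annotated product, 5 of 7 kept genes of NAD, folate and riboflavin metabolism fell, beside 6.68% of all kept genes, and 1 of the 5 was above 0.5 at 60 min. The 60 min interval included 0.5 for that gene, *qns1* (0.454 to 0.620), and for *fol2* (0.412 to 0.589) and *nrk1* (0.370 to 0.547). This group was assembled after the values had been seen, so its high share follows in part from that choice. In the list of amino acid, nucleotide and sugar metabolism 2 of 28 kept genes fell (7.14%), *his6* and *gnd1*, and its median ratios were 0.827 at 30 min and 1.05 at 60 min. *mtd1*, annotated as a methylenetetrahydrofolate reductase, had 500, 110 and 141 reads, and *fol2*, for GTP cyclohydrolase, 439, 148 and 177. *rib4*, for the lumazine synthase of riboflavin synthesis, had 262, 80 and 57. In the NAD pathway *qns1*, which makes NAD in its last step, reached 0.532 and *nrk1*, the nicotinamide riboside kinase gene, 0.453. *gnd1*, for the phosphogluconate dehydrogenase of the pentose phosphate pathway, had 1229, 449 and 305 reads and a 60 min interval of 0.267 to 0.345. Phosphoribosyl metabolism was represented by *apt1* (60 min ratio 0.305), *his6* (0.387) and the ribose-phosphate pyrophosphokinase gene SPCC1620.06c (0.402). *mde1* and SPAC9.06c, both annotated as methylthioribulose-1-phosphate dehydratase of methionine salvage, had 60 min ratios of 0.382 and 0.553.

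Ribosomal protein genes fell in 4 of 77 kept genes of the list (5.19%, beside 6.68% of all kept genes, median 30 min ratio of the list 0.918). By their symbols the 4 belong to families of gene copies, whose likeness was not measured, and the authors kept only unequivocally mapped reads. Reads that fit several copies are therefore missing from the counts, and the values of these genes are uncertain. *rpl1603* had 330, 61 and 29 reads (0.200 and 0.111), while its copies *rpl1601* and *rpl1602* had 30 min ratios of 0.871 and 0.940. *rpl3002* had 171, 51 and 99 reads, beside 1306, 1635 and 1534 for *rpl3001*, whose ratio of 1.34 lay on the other side of 1. *rps2202* had 2065, 612 and 760, and *rpl102* 572, 199 and 217. The list of translation and ribosome biogenesis held 3 falling genes of 56, which were *rio2*, a kinase gene of 40S maturation (544, 151 and 131 reads), *tma20* (2136, 576 and 623) and the helicase gene *dbp2* (756, 317 and 314).

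DNA replication, centromere and spindle pole genes were also in the set. In the list of MBF regulated genes and DNA replication 2 of 28 kept genes fell (7.14%) and 1 was at 2 or above. In that of mitosis and spindle 3 of 33 fell (9.09%) and 4 were at 2 or above. Over all kept genes 6.68% fell and 6.09% were at 2 or above. In narrower groups by annotated product, 3 of 9 kept genes of replication complexes and 3 of 6 of CENP-A and centromere proteins fell, beside 6.68% of all kept genes. These groups were chosen after the values had been seen, so their high shares follow in part from that choice. *psf3*, for a subunit of the GINS complex of the replicative helicase, had 639, 261 and 429 reads and came back to 0.823. *rfc2*, for a subunit of the clamp loader, was at 0.537 (0.409 to 0.692) and *swi3*, of the replication fork protection complex, at 0.689 (0.514 to 0.907). *mhf1*, for a histone-fold protein, stayed low with 152, 23 and 38 reads. At the centromere, *mis16*, for a chaperone that recruits CENP-A, had 1515, 697 and 609, and *ccp1*, for a CENP-A disassembly chaperone, 1564, 624 and 694. *sim4*, a kinetochore gene, reached 0.706 at 60 min. *cdc31*, the centrin of the spindle pole body, showed the steepest rise in unsplit reads of the set, from 14 to 221 and 160, while its split reads went from 557 to 36 and 60.

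The spliceosome and snRNP list held 2 falling genes of 47 kept ones (4.26%) and 5 at 2 or above. The list of mRNA decay and exosome held 1 falling gene of 31 (3.23%). Over all kept genes 6.68% fell and 6.09% were at 2 or above. *smf1*, for an Sm core protein of the spliceosomal snRNPs, had 276, 119 and 195 reads and stood at 0.867 at 60 min. *lsm1*, of the mRNA decapping complex, was counted in both lists, in the first for its LSM name, and had 911, 329 and 367. *tgs1*, which hypermethylates the cap of snRNAs, had 111, 34 and 36, and *eri1*, a nuclease gene for small interfering RNA, 180, 46 and 43.

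Of protein kinases and phosphatases 2 of 43 kept genes fell. *ppk13*, a protein kinase gene, had 178, 27 and 28 reads, and *ppa1*, a catalytic subunit of protein phosphatase 2A, 141, 38 and 45. *mvp1*, a sorting nexin gene with 9 introns, had 274, 36 and 111, and *dip1*, for an activator of the Arp2/3 complex in endocytosis, 165, 38 and 38. *mde6*, *mde1*, *mde10* and *mug65* were the falling genes of the 20 kept in the meiosis and mating list, and the first of them had 158, 31 and 25 reads. *mde1* entered that list by its symbol, while its annotated product is the dehydratase of methionine salvage named above. *mde10*, an ADAM family peptidase gene, had 117, 47 and 45, and *mug65*, annotated for spore wall assembly, 151, 70 and 80. No gene fell among the 82 of vesicle traffic and small GTPases, the 20 of stress response and chaperones, the 15 of nuclear pore and transport or the 13 of septation. These lists go by symbol and are not complete. *mvp1* and SPBC32F12.12c, annotated as a Golgi membrane protein of vesicle transport (60 min ratio 0.629), are in none of them and fell. In the ubiquitin and proteasome list 1 gene of 68 fell. In all 35 of the 103 genes were in one of the 19 lists by symbol, and these counts stand beside the 6.68% of all kept genes with no test.

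Other falling genes had mixed annotated products. *ubc15*, a ubiquitin-conjugating enzyme gene, had 1355, 372 and 658 reads (60 min ratio 0.595), and *miy1*, a deubiquitinase gene, 173, 55 and 53 (0.380). *fma1*, for a methionine aminopeptidase, which trims the first residue of new proteins, came back from 79 to 153 reads after 217 at the start and stood at 0.865 (0.697 to 1.07). *hbs1*, a ribosome rescue GTPase gene, and *ate1*, an arginyl-tRNA protein transferase gene, were at 0.652 (0.540 to 0.781) and 0.507 (0.432 to 0.591). SPAC644.09, annotated as a pyridoxal phosphate homeostasis protein, also came close to its start, with 317, 111 and 232 reads (0.897). SPAC3G6.05, for a membrane protein of the Mpv17/PMP22 family, was second in untreated reads and stayed low, with 2922, 1101 and 795 (0.333), as did *pex11*, a peroxisome gene, with 1217, 553 and 443. *hpz1*, a zinc finger gene, had 244, 88 and 41 reads and a 60 over 30 min ratio of 0.541 (0.359 to 0.782). SPAC16C9.01c, annotated as a carbohydrate kinase, had 391, 130 and 89. Its 60 over 30 min ratio was 0.788, with an interval that included 1 (0.593 to 1.04). SPBC115.03, for an oxidoreductase, had 131, 27 and 32.

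The genes with 3 or more junctions not described with another group numbered 12, and 3 of them were above 0.5 at 60 min. SPAC630.06c, an uncharacterized gene, had 170, 57 and 101 reads and reached 0.730, *dcw1*, for a mannosidase, had 178, 49 and 99 and reached 0.684, and SPBC32F12.12c had 145, 58 and 74. The most read was *cbs2*, annotated as a protein kinase activator, with 1207, 424 and 395, followed by SPAC1002.07c, an N-acetyltransferase gene, with 1124, 418 and 412. *pfd6*, for a subunit of prefoldin, which hands unfolded proteins to a chaperonin, had 513, 217 and 178, and 75.6% of its reads at 30 min were unsplit. *duc1* had 759, 258 and 199, *duf8901*, for a metal-dependent phosphatase, 787, 329 and 260, and *aim19* 125, 53 and 33. Scaled to library size, their 60 over 30 min ratios were 0.886 (0.731 to 1.07), 0.907 (0.767 to 1.07) and 0.722 (0.448 to 1.12). All of these intervals included 1. *pet801*, annotated as a putative S-adenosylmethionine transporter, *ifs1*, for a Maf-like protein, and *pud1*, for a pseudouridine phosphatase, had 60 min ratios of 0.477, 0.478 and 0.483. A further 11 genes had 30 min ratios from 0.300 to 0.471 and 60 min ratios from 0.359 to 0.643, with 5 above 0.5 and none at 0.8.

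Where a gene had several introns, most of them moved the same way. The 71 falling genes with 2 or more junctions held 234 junctions with 20 or more untreated reads, of which 183 were at 0.5 or below at 30 min (78.2%, beside 10.9% of all such junctions of kept genes) and 230 were below 1. The sum of these junctions chose the genes, so a high share is fixed by the choice. Of 69 genes with at least 2 such junctions, 27 had all of them at 0.5 or below and 33 all but 1. In *icp55*, a mitochondrial peptidase gene with 1448, 335 and 631 reads, all 11 junctions were between 0.0731 and 0.473 at 30 min. In *mvp1* the 5 junctions with 20 or more untreated reads were between 0.0712 and 0.252.

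Junctions that went against their gene were few. *tan1* owed its fall to junctions 3 and 5, with 436 then 76 and 339 then 149 reads. Its junction 2 had 92 and 104, a ratio of 1.21 with an interval that included 1 (0.903 to 1.62). At junction 2 unsplit reads went from 1 to 60. Junction 4 had few reads, 14 split and 8 unsplit, then 14 and 17, and the highest ratio of the gene, 1.49. In SPAC4H3.06 the first junction stayed at 45, 51 and 52 reads with 2 unsplit reads in each library, and the second went from 168 to 25 and 19. *crt10* had a low 5' part and a less changed 3' part, with 72 and 6 reads at its junction 1 and 36 and 29 at its junction 6. At its junctions 3 and 4 every read at 30 min was unsplit (19 and 21 reads).

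**Figure D5:**
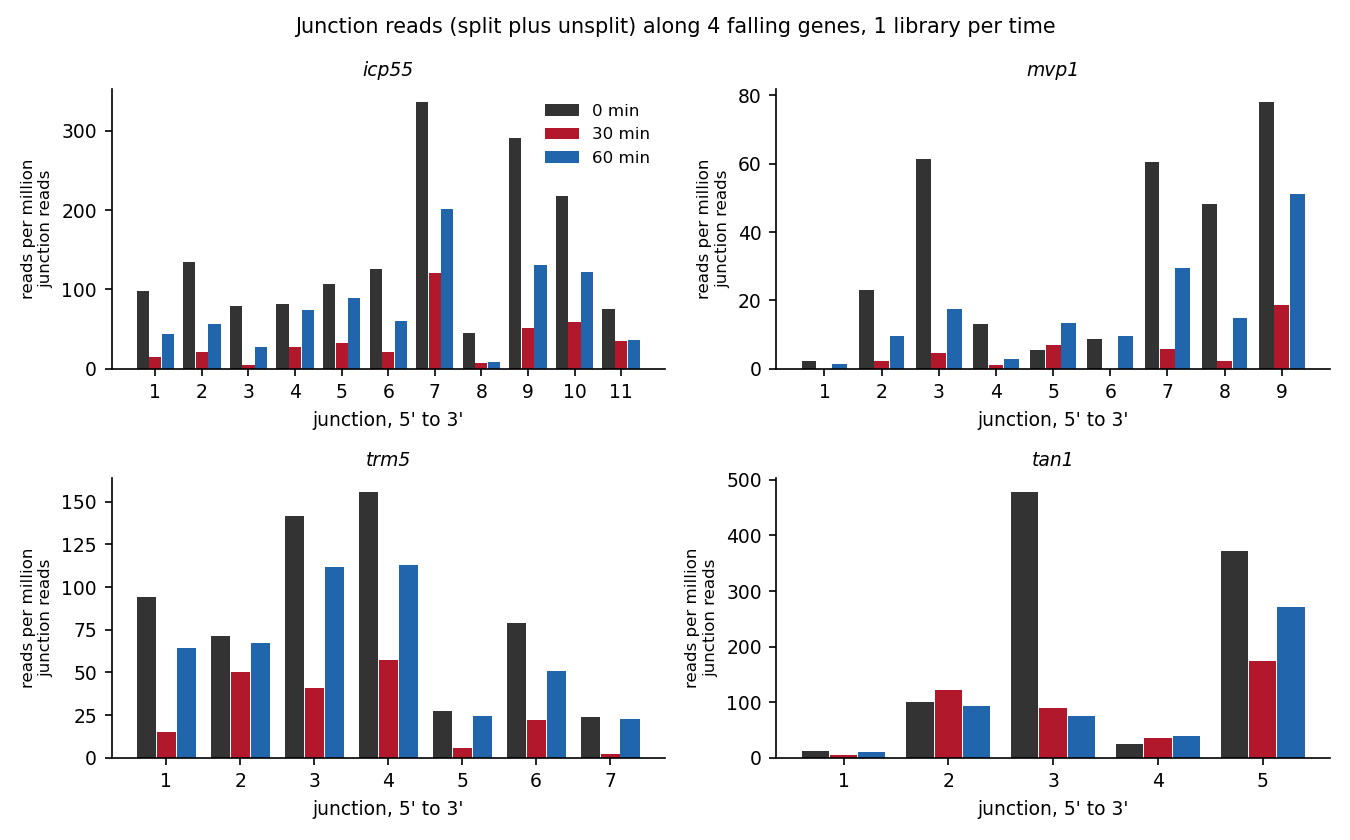
Split plus unsplit reads per 1000000 junction reads of the library (y axis, from 0) at each junction from 5' to 3' (x axis) of 4 falling genes, at 0 min (black), 30 min (red) and 60 min (blue), 1 library per time. All junctions of *icp55* are lower at 30 min, and junctions 2 and 4 of *tan1* are not.

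Features that the choice did not use are given beside those of the other kept genes, with no test, and some of them differed. The falling genes had a median of 2 annotated introns, as the other kept genes had, and a shorter median coding length, 810 nt beside 969 nt. Chromosome I held 49 of them, chromosome II 42 and chromosome III 12, where 17.1% of the other kept genes lie (11.7% of the falling ones). The nearest kept gene was itself a falling gene for 6 of them (5.83%, beside 6.54% for the others). A single pair, *pth1* and *mhf1*, lies side by side among protein-coding genes, head to head on chromosome II.

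Their 280 annotated introns had a median length of 60.5 nt (quartiles 49 and 101), beside 55 nt (46 and 84) in the other kept genes. Matches to CAG/GUAAGU, counted as pairs with U1 snRNA over positions -3 to +6 without wobble pairs, averaged 6.06 ± 1.06 (SD over introns) of 9. In the other kept genes they averaged 6.17 ± 0.950, a difference far smaller than the spread between introns. Introns with 4 pairs made up 7.14% beside 2.46%, and those with 5 pairs 19.3% beside 21.3%. At position -3 more of the introns of falling genes had the pairing C, 22.5% beside 16.5%, and at positions +5 and +6 fewer had the pairing base. At position +5 83.2% could pair beside 88.6%, and at position +6 58.9% beside 66.1%. The 5' SS GUAAGU, as in *tbp1* introns 1 and 3, stood in 22.1% of their introns and 26.8% of the others, and GUAAGC, as in *cbf11* and *rio2*, in 5.36% and 3.78%. A CURAY pentamer was found in the last 40 nt of 70.7% of introns beside 75.1%. These are descriptions with no test, and introns of 1 gene are not independent.

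Promoters, taken as 250 bases before to 50 after the annotated gene start, held no motif that set the falling genes apart as a whole. Each motif was searched on both strands by its letters. TGACGT, the core of the cyclic AMP response element, stood in 10 of 103 (9.71%, beside 5.89% of all promoters), among them *gnd1*, *mvp1* and *tsp0*. TATAAA stood in 38 (36.9% beside 48.1%), *tbp1* included. CAGTCAC, the HomolD letters, stood in 4 (3.88% beside 4.70%), which were the 4 ribosomal protein genes. ACGCGT (2.91% beside 3.24%), CCAGCC (2.91% beside 3.26%), GTAAACA (15.5% beside 16.5%), AGATAA (26.2% beside 24.4%) and GAANNTTC (12.6% beside 11.1%) were close to their share of all promoters. A match is a description of letters and not of binding.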

How the data were processed

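RNA-seq reads from 3 libraries of the *prp4-as2* strain were, per the labels and the study's methods, aligned by the authors with TopHat, kept where they mapped unequivocally, and counted at the exon1/5' SS of annotated introns. The deposited table gives whole counts of split and unsplit reads per junction and library, with no normalization, and a log2 value per junction which the authors formed from both counts. That deposited log2 value equals log2((split + 1)/(unsplit + 1)) and was used only for this comparison. The table has 5374 lines, and 6 of them list a junction a further time for an overlapping gene and were dropped.

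Counts were summed per gene, 1 was added to each sum, and ratios were scaled to the junction reads of each library (Python 3, numpy and pandas). Intervals are exact conditional (Clopper-Pearson) 95% limits and cover counting error only. Ratio steps were tested on simulated data. A gene at 60 min was called returned above 0.5 and near untreated at 0.8 or above. Gene IDs were matched to RefSeq ASM294v3 (1541 of 1543 kept genes, all 103 falling ones), which also gave introns, products and promoters. The authors' annotation was another release of the same assembly series, and introns were used only where the junction lay at an annotated 5' SS.

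Named genes were the 15 lowest at 30 min, the 10 highest and 10 lowest at 60 min, the 10 with most untreated reads, genes with 3 or more junctions, members of the gene lists, *tbp1* and *rpb5*, and the 5 genes on each side of the threshold. The genes and lists were chosen with earlier results of these data known. Genes named for their annotated product or for the tRNA, cofactor, centromere and replication groups were picked after their values were seen. Alternatives were the read minimum, the scaling, the number added to the sums, split reads alone, repeated lines, the ratio threshold and the median of junction ratios. Results of 1 falling gene are not reported here, and it stays in the counts and medians over the set.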

Additional observations from a re-analysis of the deposited data

How the results depend on the processing

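The number of falling genes, 103 as reported, was 67 at a ratio of 0.4, 168 at 0.6 and 321 with split reads alone, of which 100 were among the 103. Under the other 9 alternatives it ranged from 70 with a minimum of 200 reads to 129 with scaling to the median gene ratio, which held all 103. The number above 0.5 at 60 min, 41 as reported, was 26 with a minimum of 200 reads, 21 at a ratio of 0.4, 91 at 0.6 and 117 with split reads alone. The median 60 min ratio, 0.473 as reported, was 0.401 at a ratio of 0.4, 0.527 at 0.6 and 0.411 with split reads alone. The median unspliced share at 30 min, 49.0% as reported, was 70.1% with split reads alone and between 45.4% and 49.2% otherwise. For single genes, *tbp1* at 60 min turned from 0.902 to 1.38 with the median of its junction ratios, because its introns 2 and 3 weigh as much there as the more read intron 1. A stricter ratio and split reads alone change which genes are counted by their construction. No alternative supplies replicates: 1 library per condition leaves the spread between cultures unknown, and a gene with 150 untreated reads could not be placed on 1 side of 0.5 where its ratio was near it.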
